A study of Mus musculus with 18 samples.

Results

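Wild-type mice of 2 gene-targeted lines were put through the same bout of chemical colitis, and the distal colon of the Il1f9-line wild types (Il1f9 WT, 2 libraries) was compared with that of the Il1f5-line wild types (Il1f5 WT, 3 libraries). The 5 libraries were taken by their labels, with no measured value in the rule, from the 18 bulk RNA sequencing libraries of the series. Earlier results of these data were known when the comparison and the gene lists were chosen. All mice were of strain C57BL/6. The Il1f9 WT mice were Il1f9+/+ and the Il1f5 WT mice Il1f5+/+. Both groups drank water with 2.5% dextran sulfate sodium (DSS), a polymer that injures the colon lining, over 5 days and plain water over the 2 days that followed, and a 0.5 cm piece of distal colon close to the anus was taken. Il1f9 encodes the cytokine IL-36 gamma, and Il1f5 encodes the antagonist of its receptor. The labels give no age, litter, cage, date or hour of collection for either group. Other mice of the same lines, used where stated, were the colitis knockouts (Il1f9-/-, n = 2, and Il1f5-/-, n = 3) and the wild-type tumours of the azoxymethane and DSS model (n = 2 per line).

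The targeted genes were read first. Il1f9 had 232 and 90 counts in Il1f9 WT 1 and 2, and 9 and 1 counts in the Il1f9 KO libraries. Il1f5 had 0 counts in all 5 wild-type colitis libraries, and 36, 43 and 45 counts in the libraries labelled Il1f5 KO. In the tumours it had 0 and 0 counts in the libraries labelled Il1f5 WT, and 102 and 211 in those labelled Il1f5 KO. Whether these reads come from the targeted allele or from exchanged labels was not tested. The Il1f5 counts thus go against the labels of that line, so its groups are called the libraries labelled Il1f5 WT or Il1f5 KO, and every direction below, in colitis and in tumours, rests on the labels as given. Markers of intestinal epithelium were present in all 5 libraries: the cadherin gene Cdh17 at 645 to 1108 CPM, the brush border villin Vil1 at 676 to 1043 and the goblet cell mucin Muc2 at 3919 to 7554, where CPM is the count scaled to a common library depth. Markers of the most distal hindgut were low and uneven. Hoxb13 was at 7.96 and 7.24 CPM in Il1f9 WT 1 and 2 and at 53.9, 34.0 and 20.6 in the libraries labelled Il1f5 WT 1 to 3, without overlap (log2 fold change -2.25 ± 0.73, edgeR adjusted p = 0.121). Hoxd13 was at 8.11 and 8.80 against 30.2, 12.7 and 9.40 CPM (-1.04 ± 0.55, adjusted p = 0.284). The part of position along the colon in the results was not tested. All 5 libraries read as male, with the Y-linked Ddx3y at 59.1 to 79.4 CPM and Xist at 0.051 to 0.302. Library totals ran from 16621611 to 23776174 counts, and a count of 0 allows up to 3 counts, or 0.128 to 0.184 CPM, for counting error alone. The libraries did not split cleanly by group: across genes, the SD of the log2 difference was 0.415 between Il1f9 WT 1 and 2 and also 0.415 between Il1f9 WT 1 and the library labelled Il1f5 WT 3, against 0.305 to 0.367 within the libraries labelled Il1f5 WT.

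As background, DSS strips the colon epithelium, neutrophils and monocytes then enter the wall, and repair follows with crypt regrowth and new matrix. The circadian clock also runs in colon cells. The activators Arntl (BMAL1), Clock and Npas2 bind E-box sequences and switch on the Per, Cry and Nr1d repressors and the D-box binding factors Dbp, Tef and Hlf, and the Nr1d proteins in turn repress Arntl and Npas2, so that activators and outputs peak at opposite times of day.

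Of 18299 genes tested with edgeR, 594 were higher in Il1f9 WT (3.25%) and 308 were lower (1.68%) at an adjusted p under 0.05. These shares are the background for the counts of calls in each gene list below. Among the 594, 285 differed by at least 2-fold and 57 by at least 4-fold, and among the 308 these counts were 54 and 8. The median log2 fold change of all genes tested was 0.01. The calls hung on few libraries. They fell to 117 higher and 34 lower without the library labelled Il1f5 WT 1, to 118 and 36 without Il1f5 WT 2, and to 98 and 20 without Il1f9 WT 2, whereas 510 and 192 were called without Il1f5 WT 3 and 711 and 415 without Il1f9 WT 1. Only 78 genes (0.426%), 65 higher and 13 lower, were called in the full fit and in each of the 5 fits that left out a library; they are called stable below. DESeq2 called 2077 genes (11.4%), 1104 higher and 973 lower. At an unadjusted edgeR p under 0.05, 2477 of the 18299 genes were higher and 2126 lower, the background for such counts below. The libraries of the groups failed to overlap for 22.7% of genes in the higher and 22.8% in the lower direction, so a gap between groups is common here. All 594 higher and all 308 lower genes showed such a gap, so for a called gene it adds nothing to the call.

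**Figure D1:**
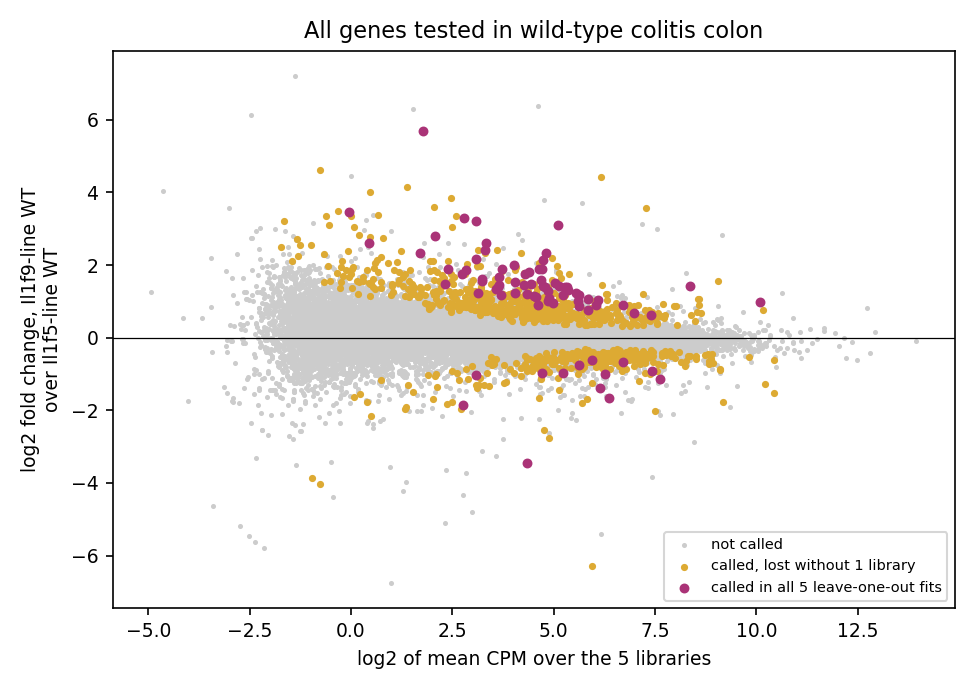
Each point is a gene, with the log2 of its mean CPM over the 5 libraries on the x axis and the edgeR log2 fold change of Il1f9 WT over the libraries labelled Il1f5 WT on the y axis. Purple points are the 78 genes called in the full fit and in all 5 fits with a library left out, yellow points the other called genes, and grey points the rest; the stable genes lie mostly above the zero line.

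The clearest block of lower genes was the output arm of the clock. Of 15 repressors and outputs tested, 8 were lower and none higher, with a median log2 fold change of -1.17, and of 6 activators tested 2 were higher and none lower (background 1.68% lower and 3.25% higher). The output count was 5 without Il1f9 WT 2 and 6 or 7 without any other library. Dbp, a D-box factor and among the most strongly cycling transcripts of mouse tissues, was at 2.57 and 3.27 CPM in Il1f9 WT 1 and 2 and at 40.0, 27.8 and 28.2 CPM in the libraries labelled Il1f5 WT 1 to 3. This was 10.9-fold lower (log2 fold change -3.45 ± 0.27 (SE), adjusted p = 0.000303) and stable. Promoter sequences are shown for 3 of the called outputs, those with a match to the E-box or the D-box core. The sequences are the 250 bases before the RefSeq start in GRCm38.p6, 5′ to 3′ on the gene's strand, with motif matches in capitals. The capitals mark CACGTG (E-box) in Ciart, minus strand, chr3:95882229-95882478, and Tef, plus strand, chr15:81802423-81802672, and TTATGTAA (core of the D-box) in Per3, minus strand, chr4:151044666-151044915.
Ciart: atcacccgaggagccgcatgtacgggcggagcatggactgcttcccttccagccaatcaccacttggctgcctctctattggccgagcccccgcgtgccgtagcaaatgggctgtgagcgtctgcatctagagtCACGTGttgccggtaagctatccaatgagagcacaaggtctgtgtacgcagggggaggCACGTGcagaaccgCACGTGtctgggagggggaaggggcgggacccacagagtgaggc
Tef: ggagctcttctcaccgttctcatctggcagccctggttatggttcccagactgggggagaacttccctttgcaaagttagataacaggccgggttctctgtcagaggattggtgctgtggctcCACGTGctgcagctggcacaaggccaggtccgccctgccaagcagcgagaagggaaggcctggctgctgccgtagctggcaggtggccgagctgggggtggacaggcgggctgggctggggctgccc
Per3: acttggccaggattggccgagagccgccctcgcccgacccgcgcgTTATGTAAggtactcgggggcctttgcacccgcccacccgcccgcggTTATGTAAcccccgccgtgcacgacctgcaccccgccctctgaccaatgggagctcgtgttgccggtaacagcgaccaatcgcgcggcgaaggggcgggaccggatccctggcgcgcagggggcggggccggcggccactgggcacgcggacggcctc
Of 22 clock genes searched on both strands, 18 matched a RefSeq promoter. CACGTG was found in 5 of them (Per1, Cry1, Tef, Ciart and Bhlhe41), against 6.86% of all 27025 genes with a promoter in the table (6.02% of 32851 promoters). TTATGTAA was found in Per3 alone, against 0.977% of all genes (0.819% of promoters). Neither motif was found for the called outputs Dbp, Nr1d1, Nr1d2, Hlf and Usp2, nor for the called activators Arntl and Npas2. A match is a description of the letters and says nothing of binding.

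Ciart, a repressor of the activators whose promoter above holds 3 E-boxes, was at 2.05 and 3.22 CPM in Il1f9 WT and at 10.2, 8.46 and 9.91 in the libraries labelled Il1f5 WT (log2 fold change -1.85 ± 0.28, adjusted p = 0.00646). Tef, a D-box factor, was at 37.7 and 35.0 against 128, 107 and 107 CPM (-1.65 ± 0.19, adjusted p = 0.00256). Nr1d2, which encodes REV-ERB beta, was at 37.1 and 35.2 against 98.7, 88.5 and 93.7 CPM (-1.37 ± 0.15, adjusted p = 0.00231). All 3 were stable, with little spread inside either group, and the rule that chose them required a gap between the groups. Usp2, a clock-driven deubiquitinase, was lower as well, at 14.4 and 18.7 against 34.6, 29.6 and 33.5 CPM (-0.98 ± 0.15), and stable. So was Cipc, an inhibitor of the Clock protein outside the list of 15, at 75.4 and 78.9 against 123, 125 and 118 CPM (-0.66 ± 0.10). Nr1d1, which encodes REV-ERB alpha and overlaps Thra on the opposite strand, was at 21.1 and 20.8 against 81.2, 62.8 and 73.7 CPM (-1.79 ± 0.26, adjusted p = 0.00852). It lost its call without Il1f9 WT 2 (adjusted p = 0.111). Per3, a core repressor, was at 10.7 and 10.9 against 36.7, 32.7 and 34.0 CPM (-1.67 ± 0.28, adjusted p = 0.0141), a wide gap that nonetheless missed the threshold with any of 4 libraries left out, the exception being the library labelled Il1f5 WT 3 (adjusted p of 0.0534 to 0.168). Hlf (-1.17 ± 0.28, adjusted p = 0.0368) was the other called output of the list, and it missed without each library in turn (0.0546 to 0.130).

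The activators that passed moved the opposite way. Arntl was at 34.9 and 32.8 CPM in Il1f9 WT and at 15.1, 16.1 and 14.95 in the libraries labelled Il1f5 WT (log2 fold change 1.14 ± 0.18, adjusted p = 0.00787), and Npas2 at 27.0 and 23.04 against 9.11, 10.7 and 11.9 (1.24 ± 0.15, adjusted p = 0.00256). Both were stable, whereas Clock itself did not pass the test and its values overlapped. Nfil3, which competes with the D-box factors for their sites, was at 45.1 and 53.9 against 11.5, 17.5 and 31.0 CPM (1.30 ± 0.36, adjusted p = 0.0792). Per2, the repressor at 18.2 and 29.3 against 55.4, 50.1 and 51.1 CPM, also missed (-1.14 ± 0.34, adjusted p = 0.086).

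**Figure D2:**
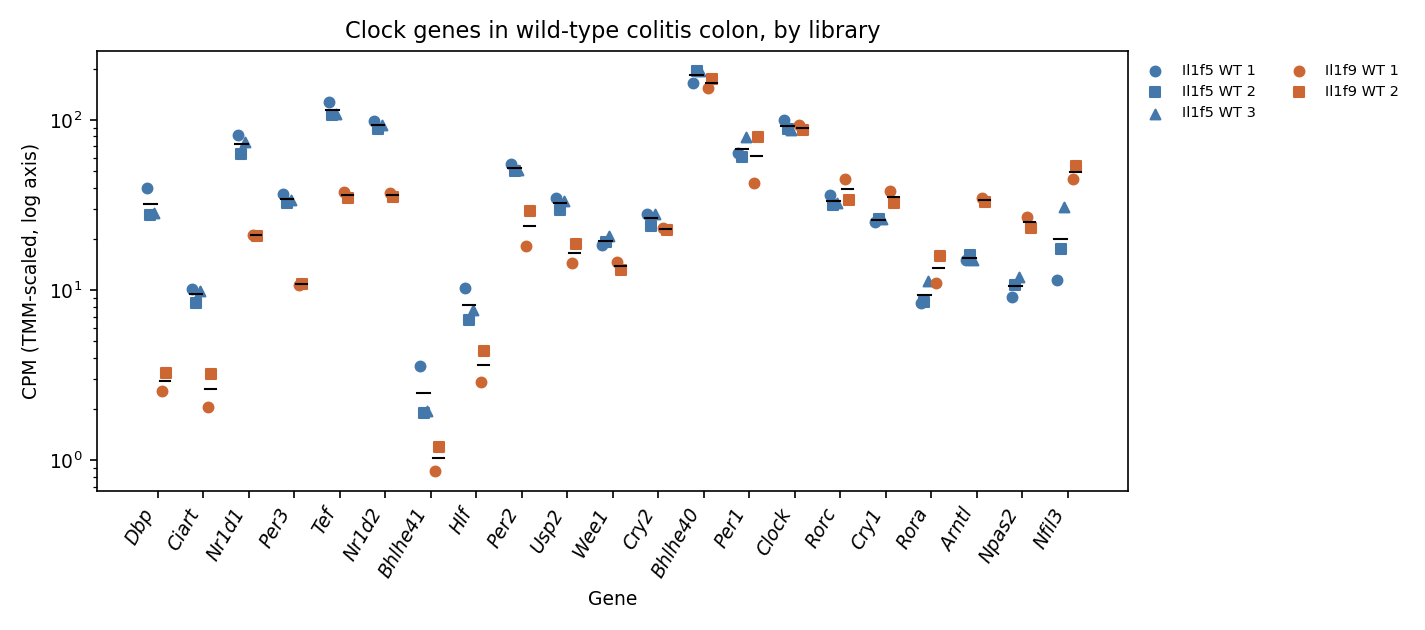
CPM on a log axis of the clock genes in each wild-type colitis library, with blue symbols for the libraries labelled Il1f5 WT, orange for Il1f9 WT and a black bar for each group mean. Genes run from the lowest to the highest fold change, so the blue symbols lie above the orange at Dbp, Ciart, Nr1d1 and Per3 on the left and below them at Arntl and Npas2 on the right.

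Heat shock chaperones, which refold proteins damaged by stress, were the next block of lower genes (background 1.68% lower). Of 14 tested, 7 were lower and none higher (median log2 fold change -0.69), and the count was 2 without Il1f9 WT 2, 4 without the library labelled Il1f5 WT 1, 5 without Il1f5 WT 2, and 6 or 8 without the others. Hspa4l, an HSP110-family chaperone, was at 49.4 and 46.1 CPM against 104, 99.0 and 83.4 (-0.997 ± 0.130, adjusted p = 0.00382). Hsph1, its relative HSP105, was at 116 and 105 against 207, 192 and 233 CPM (-0.93 ± 0.12, adjusted p = 0.00386), and both were stable. The inducible HSP70 gene Hspa1b was at 55.4 and 73.1 against 268, 225 and 285 CPM (-2.01 ± 0.29, adjusted p = 0.012), the largest fall of the list. That call was lost without Il1f9 WT 1 (adjusted p = 0.0515) and without Il1f9 WT 2 (adjusted p = 0.102), and reads of Hspa1b and its near-identical copy Hspa1a may have been shared between them. Immediate early genes, which respond to stimulation within minutes, did not pass: 0 of 22 by edgeR. At an unadjusted p under 0.05, 3 were higher and 1 lower (of all 18299 genes, 2477 and 2126), and 1 was higher by DESeq2.

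Genes of fatty acid breakdown and ketone synthesis, which respond to fasting and to the receptor PPAR alpha, were higher for 6 of 23 tested and lower for 1 (Bdh1). The count of 6 higher was 1 to 4 with a library left out, namely 1 without the library labelled Il1f5 WT 1 or Il1f9 WT 2, 2 without Il1f5 WT 2, 3 without Il1f5 WT 3 and 4 without Il1f9 WT 1. Acot1 and Vnn1 stand outside the list of 23. Acot1, a PPAR alpha target that splits fatty acyl-CoA and has close copies among its neighbours, was at 24.9 and 22.3 CPM in Il1f9 WT and at 5.95, 6.32 and 6.75 in the libraries labelled Il1f5 WT (1.90 ± 0.18, adjusted p = 0.0011). Vnn1, a pantetheinase of the same target group, was at 39.0 and 54.6 against 11.7, 13.4 and 12.8 CPM (1.89 ± 0.25, adjusted p = 0.00504). Both were stable, and their groups lay apart, as those of every called gene did. Among 12 glucocorticoid and fasting genes tested, 2 were higher, among them the lipase inhibitor gene Angptl4 (2.19 ± 0.45, adjusted p = 0.0406), which missed with any library but Il1f5 WT 3 left out (0.055 to 0.269). Without Il1f5 WT 3, 4 of the 12 passed, and 1 passed without each of the others.

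Macrophage and monocyte genes gave the most calls of the immune cell lists (background 3.25% higher). Of 25 macrophage and monocyte genes tested, 16 were higher and none lower (median log2 fold change 1.05), and the summed level of the list was 1583 and 1869 CPM in Il1f9 WT against 699, 723 and 822 in the libraries labelled Il1f5 WT. The count was 10 without Il1f5 WT 1, 9 without Il1f5 WT 2, 6 without Il1f9 WT 2 and 14 without either other library. In a bulk piece of tissue, more cells of a type and more RNA per cell cannot be told apart, here and in every cell list that follows. Arg1, an arginine-consuming enzyme of wound-type macrophages, was at 21.1 and 19.0 CPM in Il1f9 WT and at 3.11, 3.74 and 3.03 in the libraries labelled Il1f5 WT (2.61 ± 0.21, 6.10-fold, adjusted p = 0.000303), with little spread in either group. Itgam, the integrin CD11b of myeloid cells, was at 37.0 and 61.8 against 8.41, 11.1 and 14.1 CPM (2.14 ± 0.29, adjusted p = 0.00646). Adgre1, which encodes the macrophage antigen F4/80, was at 26.3 and 47.2 against 11.3, 8.59 and 11.6 CPM (1.81 ± 0.23, adjusted p = 0.00382). The lysozyme gene Lyz2, at 447 and 608 against 175, 196 and 219 CPM (1.43 ± 0.16), the Fc receptor gene Fcgr3, at 66.1 and 61.8 against 20.5, 23.6 and 28.4 (1.40 ± 0.21), and the growth factor receptor gene Csf1r, at 67.8 and 98.8 against 42.0, 37.0 and 41.4 (1.05 ± 0.15), were also higher. All 6 were stable, and for Itgam, Adgre1, Lyz2 and Csf1r it was Il1f9 WT 2 that stood highest. Of the same kind outside the list were Clec4a2, a lectin receptor of myeloid cells, at 11.2 and 20.4 against 3.32, 3.01 and 4.23 CPM (2.16 ± 0.28), and C5ar1, the receptor of complement C5a, at 31.0 and 28.3 against 6.00, 7.67 and 8.59 (1.99 ± 0.22).

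Neutrophil genes stood further apart than macrophage genes, but with more spread. The summed level of the list was 2139 and 1349 CPM in Il1f9 WT, 301 and 297 in the libraries labelled Il1f5 WT 1 and 2, and 662 in Il1f5 WT 3, which stood between. Of 22 genes tested, 20 had no overlap between the groups and were higher (background 22.7%), with a median log2 fold change of 2.07, yet 5 passed the test; 7 passed without Il1f5 WT 3, 2 without Il1f9 WT 1, and 1 without each of the others. DESeq2 called 15. Fpr1, the receptor with which neutrophils follow bacterial formyl peptides, was the stable member, at 13.7 and 16.5 CPM against 0.804, 0.981 and 2.69 (3.29 ± 0.41, 9.78-fold, adjusted p = 0.00382). Outside the list of 22 were Padi4 and Asprv1. Padi4, the enzyme that citrullinates histones when neutrophils release their chromatin, was at 10.5 and 6.94 against 0.965, 1.04 and 1.67 CPM (2.81 ± 0.40, adjusted p = 0.00519). Asprv1, a retroviral-like protease found in skin and in neutrophils, was at 24.9 and 11.3 against 1.82, 1.78 and 2.22 CPM (3.21 ± 0.35, adjusted p = 0.00231). Both were chosen by rule from the stable genes, and Il1f9 WT 1 held over 1.5 times the level of Il1f9 WT 2. Lcn2, the siderophore-binding protein of neutrophils and inflamed epithelium that is widely read as a severity marker, was at 372 and 321 against 14.2, 19.7 and 52.8 CPM (3.57 ± 0.74, adjusted p = 0.0474), and missed in each fit that left out a library except that without Il1f5 WT 3 (0.090 to 0.217). Mcemp1, a mast cell and neutrophil membrane protein, was at 15.4 and 15.9 against 2.57, 3.37 and 5.94 CPM (1.97 ± 0.39, adjusted p = 0.0216), and missed without Il1f5 WT 1, Il1f5 WT 2 and Il1f9 WT 2 (0.0856 to 0.150). The calprotectin gene S100a8 was at 407 and 214 against 25.3, 21.6 and 58.4 CPM and did not pass (3.13 ± 0.71, adjusted p = 0.0587). For Ly6g, a surface antigen gene used to sort neutrophils, the groups overlapped, with 182 and 72.8 against 133, 109 and 235 CPM (-0.32 ± 0.43, adjusted p = 0.684).

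Cytokines followed less closely. Of 24 tested, 1 was called, Il19, an IL-10 family cytokine at 1.95 and 2.57 CPM against 0.054, 0.245 and 0.470 (3.04 ± 0.62, adjusted p = 0.0216), which missed without the libraries labelled Il1f5 WT 1 and 2 and Il1f9 WT 2 (0.0856 to 0.154). Il1b was at 197 and 109 against 43.8, 61.4 and 99.6 CPM (1.16 ± 0.61, adjusted p = 0.288), and Tnf at 21.6 and 16.8 against 15.8, 21.8 and 23.8 (-0.09 ± 0.22, adjusted p = 0.822). The library labelled Il1f5 WT 3 was the highest of its group for both. Il18bp, the decoy for IL-18, was at 26.2 and 19.5 against 46.6, 50.4 and 54.7 CPM and did not pass (-1.15 ± 0.34, adjusted p = 0.0824). Of 28 chemokine genes tested, 3 were higher and 1, Ccl6, lower (-0.47 ± 0.09, adjusted p = 0.0184). Ccl6 missed without the libraries labelled Il1f5 WT 1 and 2 and without Il1f9 WT 1 (0.0596 to 0.0812). Cxcl13, which draws B cells into lymphoid follicles, was at 53.2 and 94.4 against 7.07, 7.11 and 11.3 CPM (3.11 ± 0.28, 8.62-fold, adjusted p = 0.00231). Cxcl12, a stromal attractant of lymphocytes and marrow cells, was at 130 and 159 against 73.0, 76.1 and 85.2 CPM (0.89 ± 0.10), and the macrophage chemokine gene Ccl9 at 61.3 and 78.3 against 31.6, 35.7 and 36.3 (1.01 ± 0.13). These 3 were stable.

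Lymphocyte genes gave few calls, with 3 of 23 T and NK cell genes higher (Cd5, Trbc2 and Ctla4) and 2 of 22 B and plasma cell genes, of which 7 passed without Il1f9 WT 1 and 1 without Il1f9 WT 2. The T and NK count was 0 without the library labelled Il1f5 WT 1 or Il1f9 WT 2, 1 without Il1f5 WT 2, 2 without Il1f5 WT 3 and 5 without Il1f9 WT 1, and the summed list level was 77.6 and 133 CPM in Il1f9 WT against 60.3, 53.6 and 50.1. Over all genes tested 3.25% were called higher, a smaller share than in either list. In the T and NK list 13 genes had no overlap and were higher (background 22.7%), with a median of 1.04. At an unadjusted p under 0.05, 12 were higher, and 10 by DESeq2 (of all 18299 genes, 2477 and 1104). In the B and plasma cell list 4 were higher by DESeq2. Ighg2c (ENSMUSG00000076612, chr12:113285325-113288932), the IgG2c heavy chain constant region that C57BL/6 mice carry in place of IgG2a, had the smallest adjusted p of all genes. It had 197 and 131 counts in Il1f9 WT and 2, 5 and 2 counts in the libraries labelled Il1f5 WT, or 10.1 and 6.59 against 0.107, 0.307 and 0.085 CPM (5.69 ± 0.40, adjusted p = 0.000178). Per depth, 328 against 9 counts is a ratio of 54.1, with a 95% counting interval of 28.1 to 119. In the colitis knockouts Ighg2c was at 20.2 and 15.2 CPM in Il1f9 KO and at 9.64, 14.4 and 12.4 in the libraries labelled Il1f5 KO. Among the colitis groups, then, the libraries labelled Il1f5 WT stood apart as low. Ighg2b, the neighbouring and closely similar IgG2b gene, was at 10.9 and 15.4 against 4.93, 2.64 and 2.18 CPM (2.03 ± 0.28, adjusted p = 0.00587) and missed without Il1f9 WT 2 (0.0565). The IgG1 gene Ighg1 overlapped between groups, at 1.44 and 1.96 against 7.07, 3.86 and 1.28 CPM (adjusted p = 0.537), as did the joining chain gene Jchain, at 131 and 281 against 273, 186 and 201 (adjusted p = 0.895).

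**Figure D3:**
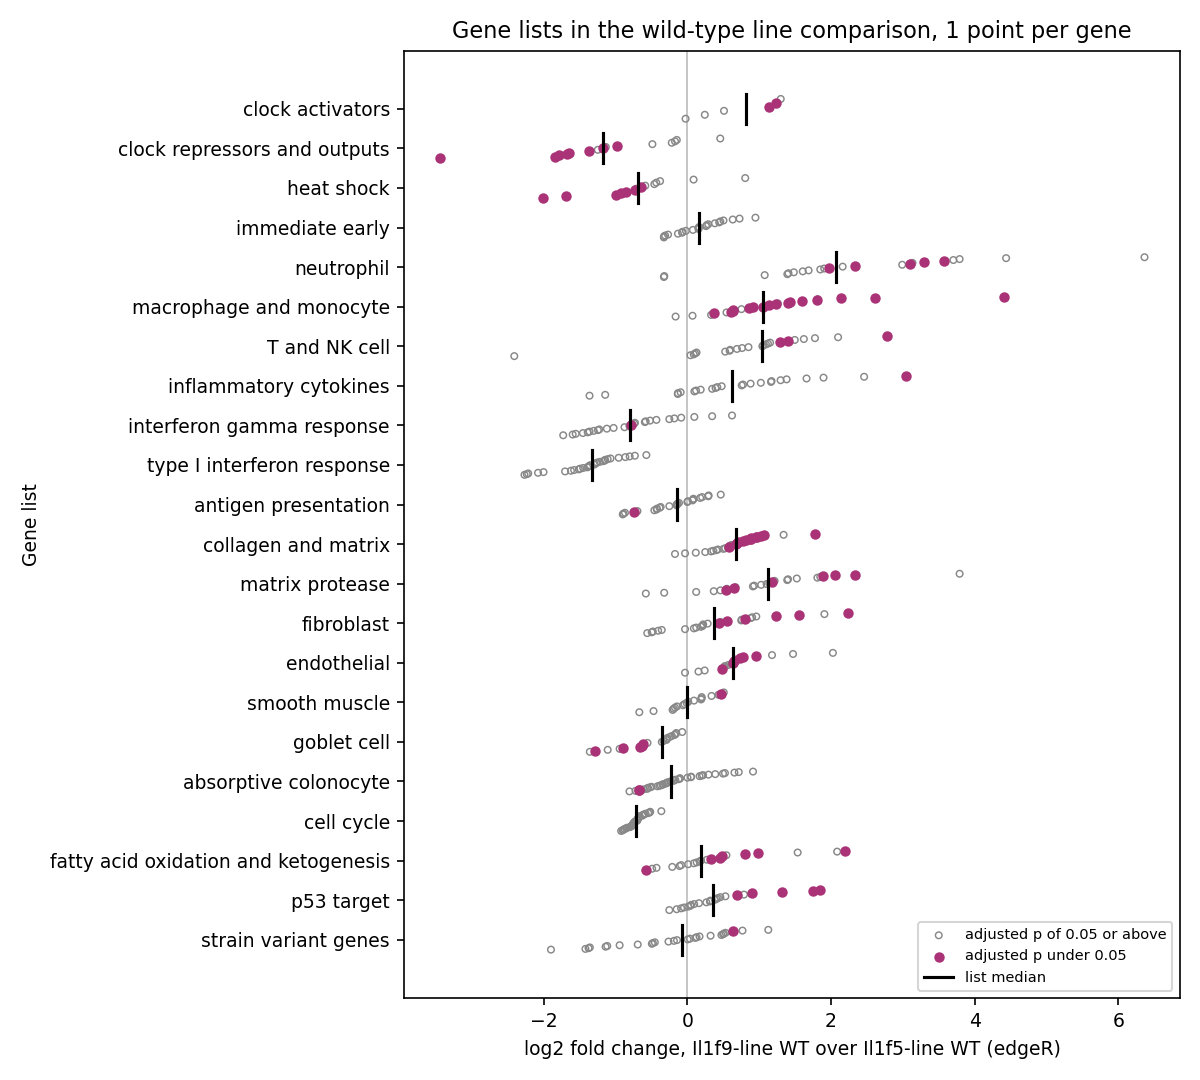
Each point is a tested gene at its edgeR log2 fold change of Il1f9 WT over the libraries labelled Il1f5 WT, in rows by gene list, filled where the adjusted p is under 0.05, with a black bar at each list's median. The macrophage list lies to the right with 16 filled points, the clock outputs and heat shock lists to the left, and the type I interferon list lies wholly to the left with no filled point.

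Interferon response genes were mostly lower in level, and 1 of the 2 lists' genes passed (background 1.68% lower). All 30 type I interferon response genes tested had a negative fold change with no overlap between groups (background 22.8%), with a median log2 fold change of -1.33, yet 0 of 30 passed in edgeR, with 17 lower at an unadjusted p under 0.05 and 14 lower by DESeq2. The summed list level was 1822 and 1222 CPM against 4521, 3941 and 3022. Oas1g, a sensor of double-stranded RNA, was at 39.8 and 29.7 against 92.9, 92.1 and 67.0 CPM (-1.27 ± 0.35, adjusted p = 0.0771). Xaf1, an interferon-induced promoter of cell death, was at 19.5 and 14.4 against 57.9, 51.9 and 42.2 CPM (-1.58 ± 0.45, adjusted p = 0.086), and the ubiquitin-like Isg15 at 45.1 and 23.4 against 169, 163 and 103 (-2.08 ± 0.90, adjusted p = 0.212). For Oas1g, Xaf1 and Isg15 the library labelled Il1f5 WT 3 was the lowest of its group and Il1f9 WT 2 the lowest of all 5. Of 28 genes of the interferon gamma response, 1 was lower (2 without Il1f5 WT 2 or Il1f9 WT 1), Wars, a tryptophan tRNA ligase, at 229 and 193 against 337, 393 and 362 CPM (-0.79 ± 0.11, adjusted p = 0.00519, and 0.0523 without Il1f9 WT 2), and the list's median was -0.80. Gbp7, an interferon-induced GTPase, was at 48.9 and 37.4 against 100.5, 83.8 and 97.7 CPM (-1.12 ± 0.28, adjusted p = 0.059). Of 25 antigen presentation genes, 1 was lower, the immunoproteasome subunit gene Psmb10 (-0.75 ± 0.17, adjusted p = 0.0326, and 0.064 to 0.251 without any library but Il1f9 WT 1). Cell cycle genes were likewise lower without a call: 0 of 32 passed in edgeR, with 19 lower at an unadjusted p under 0.05 and 14 lower by DESeq2. Of the 32, 31 had no overlap and were lower (background 22.8%), and the median was -0.71. Their summed level was 1416 and 943 CPM against 1958, 2006 and 1992, and 6 were called lower without Il1f9 WT 1. The proliferation marker Mki67 was at 154 and 117 against 257, 254 and 236 CPM (-0.88 ± 0.30, adjusted p = 0.12).

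Goblet cells make the mucus layer of the colon, and of their genes all 21 tested had a negative fold change. Of the 21, 5 were lower and none higher (background 1.68% lower, here and for the later lists of this paragraph). The list's median was -0.36, with a summed level of 10751 and 10924 CPM against 15225, 18055 and 15358. The count was 1 without the library labelled Il1f5 WT 1, Il1f5 WT 2 or Il1f9 WT 2 in turn, and 4 or 5 without the others. Klk1, a tissue kallikrein, was at 363 and 318 against 525, 523 and 534 CPM (-0.63 ± 0.10, adjusted p = 0.00817, and 0.0776 without Il1f9 WT 2). B3gnt6, the enzyme that builds the core 3 sugar of colonic mucin, was at 16.2 and 20.02 against 37.2, 36.4 and 27.4 CPM (-0.89 ± 0.16, adjusted p = 0.0136), and missed without Il1f5 WT 1 (0.0674) and Il1f5 WT 2 (0.0677). Clca1, a protease secreted into mucus, was at 657 and 620 against 1446, 1776 and 1449 CPM (-1.29 ± 0.31, adjusted p = 0.0458), and missed without each library in turn (0.0633 to 0.327). Absorptive colonocyte genes gave 2 lower calls of 40, the water channel gene Aqp8, at 138 and 121 against 204, 242 and 171 CPM (-0.67 ± 0.13, adjusted p = 0.0185), and the phosphate transporter gene Slc20a1, at 53.9 and 52.2 against 82.2, 83.1 and 89.5 (-0.68 ± 0.14, adjusted p = 0.0233). Both missed with at least 3 of the 5 libraries left out in turn, and the list's count of lower calls was 0 without Il1f5 WT 1 or 2, 1 without Il1f5 WT 3 or Il1f9 WT 2, and 8 without Il1f9 WT 1. Without Il1f9 WT 2, 2 were called higher. Enteroendocrine genes gave 2 lower of 22 (Tph1 and Chga), and 0 without Il1f5 WT 1, Il1f5 WT 2 or Il1f9 WT 1 and 1 without the others. Xenobiotic enzymes gave 5 lower of 40, and 1 without Il1f5 WT 1 or 2, 3 without Il1f5 WT 3, 6 without Il1f9 WT 1 and 0 without Il1f9 WT 2. Among them was the quinone reductase gene Nqo1, at 19.6 and 14.99 against 55.8, 49.98 and 34.3 CPM (-1.43 ± 0.22, adjusted p = 0.01, and 0.124 without Il1f9 WT 2).

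Further genes, chosen by rule from the stable ones, were these. Ms4a10, a tetraspan membrane protein, was at 7.45 and 5.18 CPM in Il1f9 WT and at 1.02, 1.04 and 1.62 in the libraries labelled Il1f5 WT (2.34 ± 0.32, adjusted p = 0.00451). Mmp7, the matrilysin of injured and neoplastic gut epithelium, was at 12.3 and 6.49 against 2.41, 2.45 and 2.73 CPM (1.88 ± 0.27, adjusted p = 0.0056). Lower and stable were Tns4, a focal adhesion protein, at 111 and 119 against 239, 240 and 276 CPM (-1.12 ± 0.15), Pir, an iron-binding nuclear protein, at 4.93 and 5.58 against 11.2, 11.0 and 9.78 (-1.02 ± 0.16), and Ly75, the endocytic receptor DEC-205, at 34.1 and 35.3 against 56.5, 61.4 and 57.6 (-0.75 ± 0.11). In all 3 the spread inside each group was small, and the gap between groups was required by the rule that chose them. Of 28 genes of wound-associated epithelium, 3 were higher (Mmp7, Msln and Clu) and 1 lower, with 1 higher without the library labelled Il1f5 WT 1 and 2 without Il1f5 WT 2 or Il1f9 WT 2. Of 24 p53 targets, 5 were higher, and the count was 0 without the library labelled Il1f5 WT 2 and 2 without Il1f5 WT 1 or Il1f9 WT 1. In Gdf15, Phlda3 and Ccng1 the level of Il1f9 WT 1 exceeded that of Il1f9 WT 2, as in Phlda3 at 35.9 and 18.3 against 12.1, 9.08 and 11.3 CPM (1.32 ± 0.23, adjusted p = 0.0127, and 0.067 without Il1f5 WT 2).

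**Figure D4:**
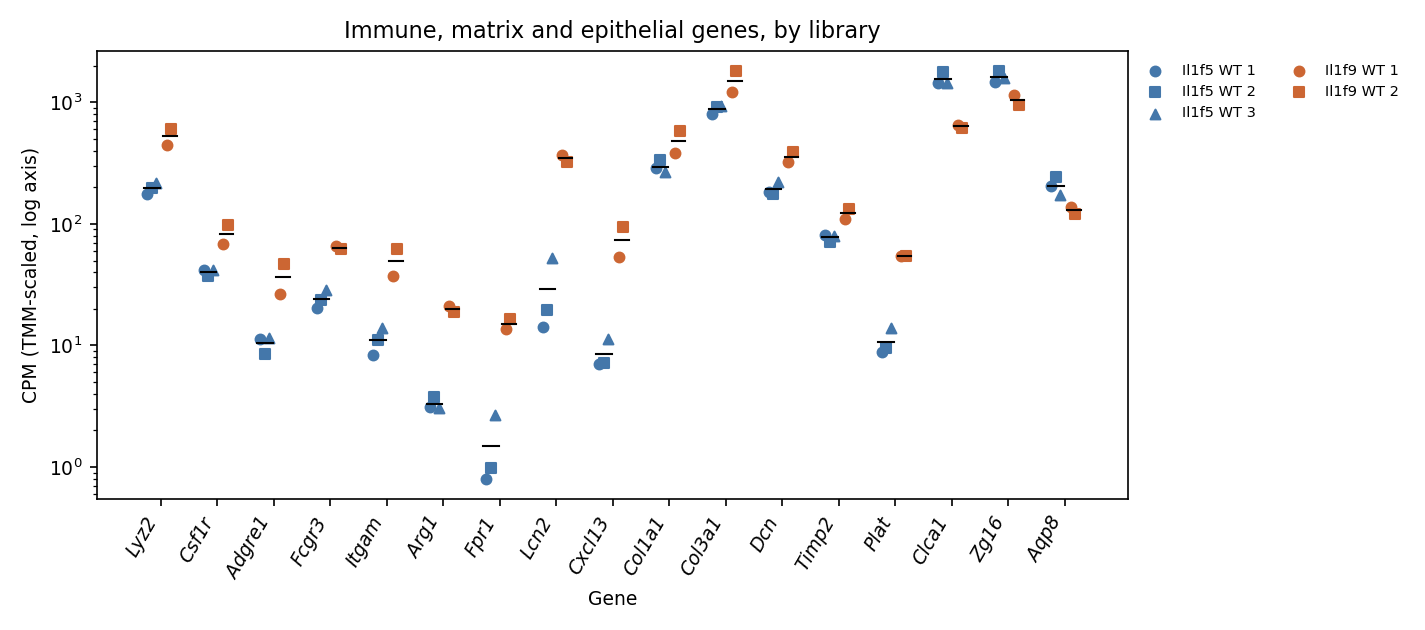
CPM on a log axis of immune, matrix and epithelial genes in each wild-type colitis library, with blue symbols for the libraries labelled Il1f5 WT, orange for Il1f9 WT and a black bar for each group mean. The orange symbols lie above the blue for the immune and matrix genes and below them at Clca1, Zg16 and Aqp8, and the blue triangle of Il1f5 WT 3 stands nearest to the orange symbols at Fpr1 and Lcn2.

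Calls among matrix and vessel genes were all in the higher direction (background 3.25%) and hung on few libraries, as the calls over all genes did. Of 32 collagen and matrix genes tested, 14 were higher and none lower (median 0.68), with a summed level of 5937 CPM in Il1f9 WT 1 and 8611 in Il1f9 WT 2 against 4115, 4318 and 4626. The count was 0 without Il1f9 WT 2, 1 without the library labelled Il1f5 WT 1 or Il1f5 WT 2, 8 without Il1f5 WT 3 and 23 without Il1f9 WT 1. Smooth muscle genes, which mark how much muscle wall the piece holds, summed to 2212 and 3650 CPM in Il1f9 WT 1 and 2 against 2801, 2865 and 3156, so Il1f9 WT 2 held the most and Il1f9 WT 1 the least; their part in the matrix values was not tested, and 1 of 18 was called (Ckb, higher). Eln, elastin, was at 75.5 and 107 against 43.9, 49.6 and 41.5 CPM (1.02 ± 0.16, adjusted p = 0.00861, and 0.0737 without Il1f9 WT 2). Dcn, the collagen-binding proteoglycan decorin, was at 322 and 388 against 184, 176 and 222 CPM (0.87 ± 0.17, adjusted p = 0.0207), and missed without Il1f5 WT 1, Il1f5 WT 2 and Il1f9 WT 2 (0.0907 to 0.195). Fibroblast genes gave 6 of 26 higher and endothelial genes 6 of 19, and both counts were 0 without Il1f9 WT 2 or Il1f5 WT 2, and 1 and 0 without Il1f5 WT 1. Matrix proteases and their inhibitors gave 6 of 26 higher, with 2 without Il1f5 WT 2 or Il1f9 WT 2, 3 without Il1f5 WT 1, and 5 or 7 without the others. Plat, the tissue plasminogen activator that starts fibrin clearance, was at 54.3 and 54.5 against 8.79, 9.57 and 13.9 CPM (2.33 ± 0.25, 5.03-fold, adjusted p = 0.00256) and was stable, with equal levels in both Il1f9 WT libraries. Ret, the growth factor receptor of enteric neurons, was at 32.9 and 28.9 against 12.5, 13.4 and 14.2 CPM (1.21 ± 0.17, adjusted p = 0.00519), stable too, and was 1 of 2 neuron and glia genes called of 19.

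Genes that differ between mouse strains bear on genetic background, but only their RNA levels were read here, not their sequence. Of 28 tested genes known to vary between inbred mouse strains or substrains, 1 was called, Cyfip2, a regulator of actin that differs between C57BL/6 substrains, at 16.4 and 22.3 against 12.004, 11.2 and 14.1 CPM (0.64 ± 0.16, adjusted p = 0.0489, and 0.154 to 0.386 without Il1f5 WT 1, Il1f5 WT 2 or Il1f9 WT 2). At an unadjusted p under 0.05, 3 were higher and 7 lower, and by DESeq2 1 and 4. The groups did not overlap for 11 in the lower direction and for 7 in the higher (background 22.8% and 22.7%). The list summed to 944 and 708 CPM against 2000.1, 1760 and 1345, a sum of which Slfn4 made up a large part. Slfn4, a myeloid Schlafen gene and the most abundant of the list, was at 318 and 172 against 1153, 972 and 619 CPM (-1.90, adjusted p = 0.166). Nnt, whose deletion marks the C57BL/6J substrain, was at 0.411 and 0.704 against 0.429, 0.307 and 0.342 CPM, low in all 5 (adjusted p = 0.42). Nlrp1b, a highly variable inflammasome sensor, was at 19.6 and 15.998 against 15.1, 14.7 and 17.6 CPM (0.17 ± 0.17, adjusted p = 0.579). Around the targeted genes on chromosome 2, 9 of 142 genes tested within 5 Mb of Il1f5 were called (6.34%) and 9 of 141 within 5 Mb of Il1f9 (6.38%), the same 9 genes, near the 4.93% of all genes. Of 5-Mb windows with at least 15 genes tested, the fullest was chromosome 11, 110 to 115 Mb, with 7 of 26 called (26.9%): the myeloid receptors Cd300a, Cd300c2, Cd300lb and Cd300ld, the transporters Abca8a and Abca9, and Sox9, the only one of them that was lower. Next were chromosome 3, 15 to 20 Mb, with 3 of 15 (20%), and chromosome 2, 15 to 20 Mb, with 3 of 17 (17.6%), against a median window of 4.44%. Of the IL-36 genes, 0 of 5 tested passed in edgeR, with 2 higher at an unadjusted p under 0.05 and 1 higher by DESeq2. Il1f9 was at 11.9 and 4.53 against 1.82, 1.59 and 2.86 CPM (1.95 ± 0.54, adjusted p = 0.0675), and its receptor gene Il1rl2 at 4.67 and 7.24 against 3.75, 3.93 and 3.33 (0.70 ± 0.23, adjusted p = 0.0903). Il1f8, the agonist IL-36 beta, had 18 and 4 counts against 5, 3 and 16, and the shared co-receptor gene Il1rap lay at 13.6 and 11.1 against 11.6, 11.5 and 8.84 CPM, with overlap in both.

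The contrast between the lines was then read in other mice. The colitis knockouts of the lines are labelled as knockouts of different genes, so line and knockout cannot be told apart there. Between the colitis knockouts, 2055 genes were higher in the Il1f9 line (11.2%) and 1849 lower (10.1%), and between the wild-type tumours 2999 (16.8%) and 2097 (11.7%) of 17859. Left-out libraries moved these counts as well: of 3904 calls between the knockouts, 885 and 1567 were counted without Il1f9 KO 2 and 1, and 2368 without the library labelled Il1f5 KO 1, and of 5096 calls in tumours, 1670 to 2891 without each of the 4 tumour libraries. The tumour libraries of the lines also differed as wholes. Those of Il1f9 WT had 22361 and 23076 genes with a count and TMM scaling factors of 0.864 and 0.911. Those labelled Il1f5 WT had 25606 and 25674 such genes and factors of 1.20 and 1.17. The part of this in the tumour calls was not tested. The knockout and tumour contrasts share no library with the wild-type colitis comparison. Of its 594 higher genes, 13 were called in the same direction in the colitis knockouts (2.19% of the 594, 0.633% of the 2055) and 294 in the opposite direction (49.5%). Of its 308 lower genes, 27 were called in the same direction (8.77% of the 308, 1.46% of the 1849) and 98 in the opposite direction (31.8%). In the tumours, 196 of 572 higher genes tested there were called in the same direction (34.3%, and 6.72% of the tumour calls among shared genes) and 44 in the opposite (7.69%), and of 307 lower genes 33 (10.7%) and 66 (21.5%). The difference between the wild-type and the knockout contrast, tested as such, was called for 4535 genes (24.8%), and for 1961 without Il1f9 WT 2, 1962 without Il1f9 KO 2 and 2846 without the library labelled Il1f5 WT 2.

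Most clock outputs were lower in the Il1f9 line between the colitis knockouts too. There 12 of 15 outputs were lower and 1, Cry1, higher, and of 6 activators 2 were higher (Arntl and Npas2) and 1, Rora, lower, with an activator median of 0.04 against 0.82 in the wild types. Dbp was at a log2 fold change of -4.05 ± 0.28 and Nr1d2 at -1.61 ± 0.15, and neither passed the test of the difference from the wild types (adjusted p = 0.254 and 0.41 for the difference). Tef (-2.82 ± 0.20), Ciart (-3.80 ± 0.33) and Arntl (2.05 ± 0.18) differed more between the knockouts than between the wild types (adjusted p = 0.00965, 0.0084 and 0.026 for the difference), and Usp2 did not pass there (-0.06 ± 0.15). In the tumours 3 outputs were lower and 2 higher, and Dbp was at -0.12 ± 0.32. Macrophage and neutrophil list genes called between the knockouts were all lower. Of 25 macrophage genes 0 were higher and 15 lower in the Il1f9 line there, and of 22 neutrophil genes 0 and 15, with Fpr1 at -2.72 ± 0.50 and Arg1 at -1.11 ± 0.23. In the tumours 7 of 24 macrophage and 19 of 22 neutrophil genes were higher, with Fpr1 at 3.47 ± 0.57 and Plat at 3.30 ± 0.38. Heat shock genes were called in the higher direction elsewhere, with 12 of 14 higher between the knockouts and 10 of 14 between the tumours, and Hsph1 at 0.82 ± 0.12 and 0.36 ± 0.47. Ighg2c did not pass between the knockouts (0.54 ± 0.25, adjusted p = 0.15) and was lower in the Il1f9-line tumours (-6.53 ± 1.11, adjusted p = 0.0125), where it had 32 and 9 counts against 4000 and 767.

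**Figure D5:**
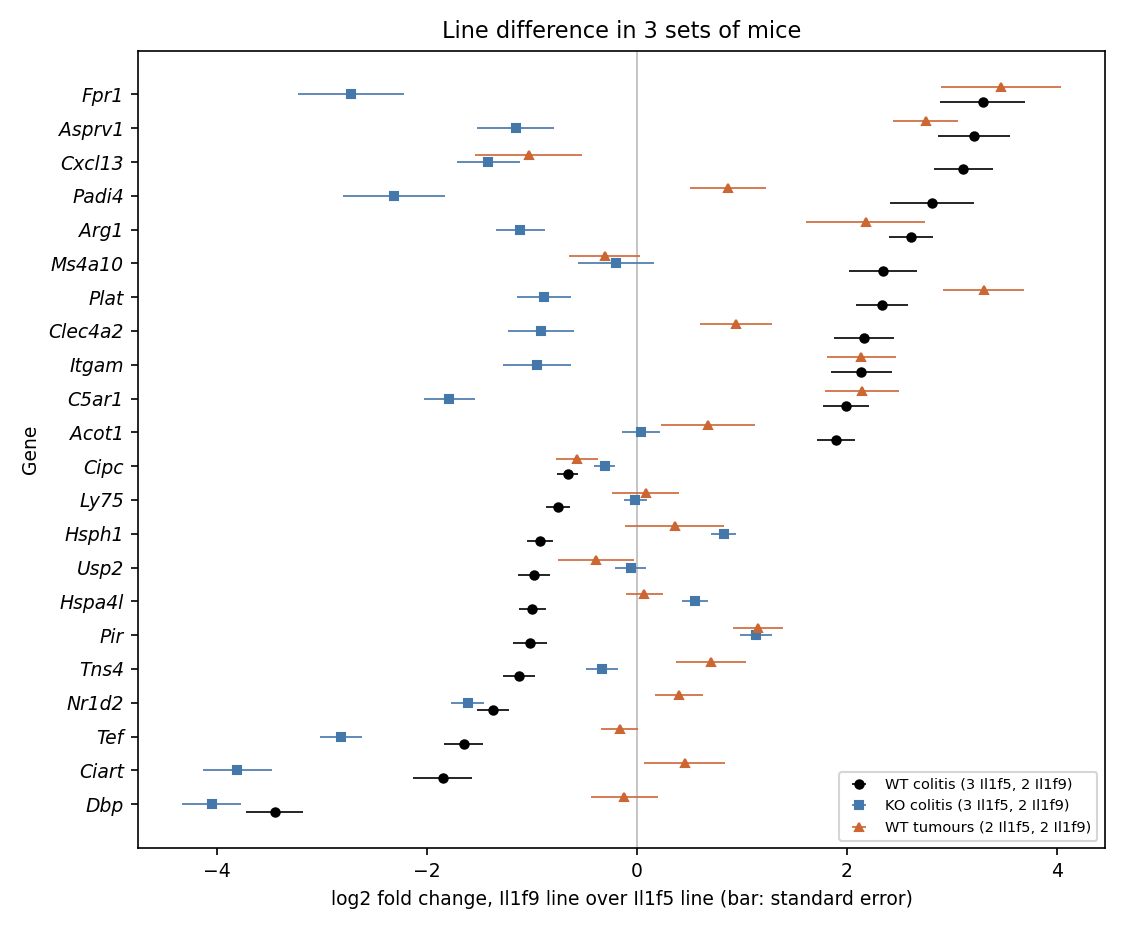
The x axis gives the edgeR log2 fold change of the Il1f9 line over the Il1f5 line with its standard error, for 11 of the largest stable rises and 11 of the largest stable falls of the wild-type colitis comparison, in wild-type colitis (black circles), knockout colitis (blue squares) and wild-type tumours (orange triangles). The blue squares lie left of zero for Fpr1, Padi4, Arg1 and C5ar1, opposite to the black circles, and on the side of the black circles for Dbp, Ciart, Tef and Nr1d2.

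Only 8 genes were called in the same direction in all 3 contrasts, 5 higher and 3 lower. Hist1h1c, a linker histone gene, was at 172 and 131 CPM in Il1f9 WT against 84.0, 96.7 and 96.3 in the libraries labelled Il1f5 WT (0.72 ± 0.13, with 0.86 ± 0.13 in knockouts and 1.34 ± 0.22 in tumours). Slc34a2, a phosphate transporter, was at 12.4 and 7.04 against 2.73, 2.15 and 1.92 CPM (2.10 ± 0.38, with 2.51 ± 0.38 and 1.73 ± 0.35). Nfkbiz, the nuclear IkB protein that acts downstream of IL-1 family and IL-17 receptors, was at 193 and 161 against 130, 125 and 116 CPM (0.51 ± 0.10, with 0.44 ± 0.10 and 1.81 ± 0.35). The other higher genes were Zfand5, a proteasome-linked zinc finger protein (0.52 ± 0.10), and Tcim (0.41 ± 0.10). Lower in all 3 were Per3, described above, the calcium sensor gene Syt7 (-0.80 ± 0.12) and the DNA damage kinase gene Atm (-0.62 ± 0.16). None of the 8 was among the 78 stable genes.

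The authors' deposited table holds their own comparison of these groups, in which 866 genes were higher and 862 lower. Of these, 456 and 243 were called here in the same direction, and 0 in the opposite direction. In the authors' deposited table the log2 fold change was -3.58 for Dbp, 2.18 for Arg1 and 5.80 for Ighg2c. Their mean for the Il1f9 WT group was above 0 for 784 genes that had 0 counts in both Il1f9 WT libraries used here, and for 0 genes in the other group, so their mean may hold a library not analysed here, and the shared calls then compare partly different samples.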

How the data were processed

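RNA from distal colon was sequenced as 150-base paired reads. The deposited count table holds raw counts per gene; per the submitters' processing notes the tools were Trim Galore 0.6.4, HISAT2 2.0.5 and featureCounts 2.0.0, and no label or header names a genome build. Gene coordinates in the files match GRCm38 for 53585 of 54532 gene IDs. The kit was not directional, per the labels' protocols, so overlapping antisense genes cannot be told apart. The authors' deposited table also holds mean signal per group, log2 fold changes and p-values of their own.

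Groups follow the labels. Counts were fitted with edgeR 4.0.16 (TMM scaling, quasi-likelihood test, R 4.3.3) over all 10 colitis libraries, and over the 8 tumour libraries separately, with Benjamini-Hochberg adjustment over all genes tested, and a gene was called at an adjusted p under 0.05. CPM values are TMM-scaled. The alternatives were DESeq2 1.42.0, its size factors, no filter on low counts, the 2 groups fitted alone, a replicate block and each library left out. The comparison is of 2 against 3 libraries, but the spread was estimated over all 10 colitis libraries, the knockouts included. The p-values therefore do not measure the spread of the compared libraries alone. Intervals and floors cover counting error only. The edgeR fit was also run on simulated counts. These held no outlying library, so that run says nothing of the dependence on single libraries.

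The comparison and the gene lists were chosen with earlier results of these data known. Named genes are the IL-36 genes, the 12 largest rises and 12 largest falls among stable genes with a mean log2 CPM of at least 1, up to 4 stable members per list, the 2 of smallest p in 8 central lists, the 8 genes shared by 3 contrasts, and the 3 fullest windows of 5 Mb. The 12 rises and 12 falls also had to show no overlap between the groups. Other genes were named after their values were seen, as members of lists or as markers. Near-identical copies (Hspa1a and Hspa1b, Acot1 and Acot2, IgG constant regions) are uncertain. Results for some named genes are not reported here.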

Additional observations from a re-analysis of the deposited data

Results flagged for a closer look

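Of 24 genes looked at, 20 had a line difference in wild-type colitis that differed from the line difference in knockout colitis by the edgeR test of the difference itself, 13 of them with opposite sign, and 4 did not pass. The same test called 24.8% of all genes tested. The 24 were chosen for large and stable differences between the wild types, which enter the tested value, so their count is a description. The value given is the log2 fold change between lines in wild types minus that in knockouts. Among immune and matrix genes it was 6.01 for Fpr1, 5.12 for Padi4, 4.52 for Cxcl13, 4.36 for Asprv1, 3.78 for C5ar1, 3.72 for Arg1, 3.22 for Plat, 3.09 for Itgam and 3.08 for Clec4a2. Among epithelial and metabolic genes it was 2.54 for Ms4a10, 1.85 for Acot1, -2.15 for Pir, -0.79 for Tns4 and -0.74 for Ly75. Among clock genes it was 1.95 for Ciart, 1.17 for Tef, -0.92 for Usp2 and -0.92 for Arntl, and among chaperones -1.75 for Hsph1 and -1.55 for Hspa4l. These values rest on the labels of the Il1f5 line, in which Il1f5 itself was read only in the libraries labelled KO. In the knockout contrast, line and knocked-out gene cannot be told apart.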

How the results depend on the processing

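Against 594 higher and 308 lower genes, DESeq2's test gave 1104 and 973, no filter on low counts 977 and 735, and the 2 groups fitted alone 885 and 921. DESeq2's size factors gave 584 and 336. Leaving out a library gave 98 to 711 higher and 20 to 415 lower. For the knockout contrast (3904 calls) that range was 885 to 5029, for the tumour contrast (5096) 1670 to 2891, and for the difference between wild types and knockouts (4535) 1961 to 5844. The replicate block gave 237 higher and 66 lower. Replicate numbers pair nothing in the labels, and deviations of same-numbered libraries correlated at -0.025 and -0.086 across genes. With 2 Il1f9 WT libraries, their deviations from the group mean are exact opposites. Differently numbered libraries therefore gave the same values with opposite sign. The sample descriptions also give Il1f9 WT 2 the letter C and the library labelled Il1f5 WT 2 the letter B. Libraries sharing the letter C were not compared, so this check cannot decide whether libraries were paired. Of 142 called genes listed by name or list, 75 kept their call with the block, 127 without the filter, and 47 without Il1f9 WT 2. None of the 142 reversed. Il1f8, which was not called, ranged from -0.96 (without Il1f9 WT 1) to 1.20 (without Il1f9 WT 2) on the log2 scale. With 2 libraries in 1 group, genes of few counts are limited by depth, and a left-out fit assumes that the lone Il1f9 WT library varies like the other groups. The cause of these shifts was not tested.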

Other observations

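Homeobox genes mark position along the gut, and between the wild types 1.68% of all genes tested were called lower. Between the knockouts Hoxb13 was higher in the Il1f9 line (log2 fold change 2.38, edgeR adjusted p = 0.0481), and the difference from the wild-type contrast passed (adjusted p = 0.0188). Of 24 homeobox and position genes tested, 1 was lower, Hoxa10, at 22.9 and 28.3 against 43.0, 42.9 and 32.7 CPM (-0.62, adjusted p = 0.0491), and it missed with any of 4 libraries left out.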
